A study of Mus musculus with 46 samples.

Results

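The genes described here are 33 genes of fatty acid uptake and oxidation in the mouse heart, out of 55359 genes counted in the study. They were chosen by symbol from a list of the pathway, and each symbol matched a single gene of the count table. The rule uses no measured value, but the list was drawn up with earlier results of these data known. They comprise 5 genes of uptake and activation, 4 of the carnitine shuttle, 2 that set malonyl-CoA, 13 of mitochondrial beta-oxidation, 3 of electron transfer to the respiratory chain, 4 of thioesterases and overflow, and 2 of the lipid droplet and fuel choice.

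The adult heart draws most of its energy from long-chain fatty acids. They are released from circulating triglyceride by lipoprotein lipase, cross the cardiomyocyte membrane, are activated to acyl-CoA, and enter mitochondria through the carnitine shuttle, whose first enzyme is inhibited by malonyl-CoA. Inside, the beta-oxidation spiral shortens the chain, and flavoproteins hand the electrons to the respiratory chain. Many of these genes are known targets of the nuclear receptors PPAR alpha and ERR alpha.

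RNA was measured in 46 libraries of adult hearts. All mice carried the Myh6MCM transgene in the Tg/0 state, a tamoxifen-dependent Cre recombinase driven by a cardiomyocyte promoter, and all, controls included, had received tamoxifen at 6 to 8 weeks of age, daily for 4 days. The Cre driver is thus aimed at cardiomyocytes, while whole hearts were sequenced. In the time course (26 NEBNext poly(A) libraries), Lmna F/F hearts were set against Lmna +/+ hearts at 1 week (4 and 5 libraries), 11 days (2 and 3) and 2 weeks (5 and 7) after tamoxifen. The labels of these F/F mice spell the transgene My6MCM. The product of Lmna is A-type lamin, a protein of the nuclear envelope. In the cross with cGas, a cytosolic DNA sensor (20 QuantSeq libraries, which count a tag near the 3' end of each transcript, all at 2 weeks), the groups were Lmna F/F with cGas null/null (4), Lmna F/F with cGas +/+ (6), Lmna F/+ with cGas null/null (4, all male) and Lmna F/+ with cGas +/+ (6). The controls of the cross thus carried a floxed Lmna allele, and those of the time course did not.

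Library totals were 8477358 to 25856892 counts with NEBNext and 22099181 to 33993289 with QuantSeq. Lmna itself was 27.0 to 36.9 normalised CPM (counts divided by TMM-corrected totals) in F/F hearts, against 45.0 to 67.7 in +/+ hearts, at 1 week. At 2 weeks it was 42.2, 108, 108, 82.8 and 84.9 CPM in F/F hearts, against 105 to 125 CPM in +/+ hearts. F/F replicates 2 and 3 of 2 weeks thus lay inside the +/+ range, and replicate 1 was the lowest. At 11 days it was 58.3 and 58.4 in the libraries labelled F/F, against 106, 118 and 52.1 in those labelled +/+, so it did not separate the arms. Lmna was called at none of the 3 times (edgeR adjusted p = 0.315, 0.558 and 0.0983), and F/F and +/+ name libraries by their labels throughout. With QuantSeq, Lmna was 16.4 to 28.6 CPM in F/F cGas null hearts against 20.2 to 25.6 CPM in F/+ cGas null hearts, and 16.6 to 28.6 CPM in F/F cGas +/+ hearts against 19.2 to 25.97 CPM in F/+ cGas +/+ hearts. These groups overlapped, and whether the tags lie in the deleted part is not given in the labels. All 12 cardiomyocyte markers were detected in every group. Each library title ends in a number of its own, but the labels do not say that it is an animal number, and if it is not, the spread behind the tests may be technical.

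Stretches of DNA around the start of 6 of these genes are shown: the promoter region between Hadha and Hadhb, and the matches, found in a minority of the genes, to the repeat that PPAR receptors bind together with RXR. RefSeq windows (build GRCm38.p6, 250 bases before to 50 after the start) were given for 28 of the 33 genes. Hadha and Hadhb, which encode the alpha and beta subunits of the mitochondrial trifunctional protein, are transcribed away from each other on chromosome 5. Their annotated starts lie 273 bases apart, and their windows share 228 bases. The 250 bases before the start of Hadha (chr5:30154981-30155230, minus strand) follow, with no letters singled out.

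Hadha: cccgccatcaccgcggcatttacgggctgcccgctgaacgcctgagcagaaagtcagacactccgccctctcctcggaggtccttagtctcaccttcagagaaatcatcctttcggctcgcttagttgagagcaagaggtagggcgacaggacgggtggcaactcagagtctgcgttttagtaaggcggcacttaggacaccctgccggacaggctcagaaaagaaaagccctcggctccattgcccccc

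The repeat searched was DR1, a direct repeat of AGGTCA with 1 base of any kind between the copies, on both strands and with up to 2 mismatches. It was found in the windows of 5 of the 28 genes (17.9%) and of 1190 of all 27025 genes with a window (4.40%). The 5 are Cd36 (chr5:17835927-17835979, minus strand), Ucp3 (chr7:100472920-100472972, plus), Echs1 (chr7:140116472-140116524, minus), Etfa (chr9:55512288-55512340, minus) and Slc25a20 (chr9:108662134-108662163, plus). The matched bases are in capitals, and in Cd36 and Etfa the match is to the reverse complement of the letters.
Cd36: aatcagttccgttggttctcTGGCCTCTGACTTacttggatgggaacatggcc
Ucp3: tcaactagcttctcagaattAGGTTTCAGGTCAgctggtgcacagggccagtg
Echs1: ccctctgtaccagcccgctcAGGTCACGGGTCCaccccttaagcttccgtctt
Etfa: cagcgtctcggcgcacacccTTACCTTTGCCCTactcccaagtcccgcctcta
Slc25a20: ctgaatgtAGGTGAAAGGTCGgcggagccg
Extended ERR sites, searched as TNAAGGTCA on both strands with no mismatch, were found in the windows of 0 of the 28 genes. Of all 27025 genes with a window, 387 (1.43%) had such a site. A match is a description of these letters and no evidence of binding. Of the 5 genes with the repeat, Slc25a20 and Echs1 were among the genes called lower at 2 weeks, described next, and Cd36, Ucp3 and Etfa were not.

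At 2 weeks after tamoxifen the pathway was lower in F/F hearts at nearly every step inside the cell. Of the 33 genes, 23 fell and 0 rose (edgeR's quasi-likelihood test, Benjamini-Hochberg adjusted p under 0.05 over 15627 genes). Without F/F replicates 2 and 3, whose Lmna lay inside the +/+ range, 13 fell and 0 rose. The share of all genes called in that smaller fit is not given here. In the fit of all libraries, 29.2% of all genes tested were called, 16.2% higher and 13% lower. The median log2 fold change of the 33 genes was -0.68, beside 0.04 over all genes, and 30 of the 33 values were below 0. By role, 3 of 5 uptake genes fell (median log2 fold change -0.56), as did 3 of 4 of the carnitine shuttle (-0.69), 2 of 2 of malonyl-CoA control (-0.82), 11 of 13 of beta-oxidation (-0.75), 2 of 3 of electron transfer (-0.73), and 1 of 4 thioesterase and overflow genes (-0.49). Of droplet and fuel choice, Plin5 fell and Pdk4 was not called. The 10 genes not called were Cd36, Lpl, Cpt1a, Acadl, Hadh, Etfa, Acot1, Acot2, Ucp3 and Pdk4.

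Cell markers moved with these genes. At 2 weeks 10 of 12 cardiomyocyte markers were called lower (median log2 fold change -0.74), and their summed level was 55199 to 95070 CPM in F/F hearts against 119500 to 141490 CPM in +/+ hearts. Of 12 macrophage markers 11 were called higher (median 1.90), with sums of 825 to 3714 CPM in F/F hearts against 466 to 715 in +/+ hearts. Of 8 fibroblast markers 7 were called higher (median 1.28), with sums of 1702 to 6304 CPM against 1083 to 1577 CPM. Their part in the result was not tested, and in whole-heart RNA fewer cells of a type and less RNA per cell cannot be told apart. Taken relative to the cardiomyocyte markers, the mean log2 level of the 33 genes was -4.36 ± 0.13 in F/F hearts (SD, n = 5) and -4.49 ± 0.10 in +/+ hearts (n = 7).

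**Figure D1:**
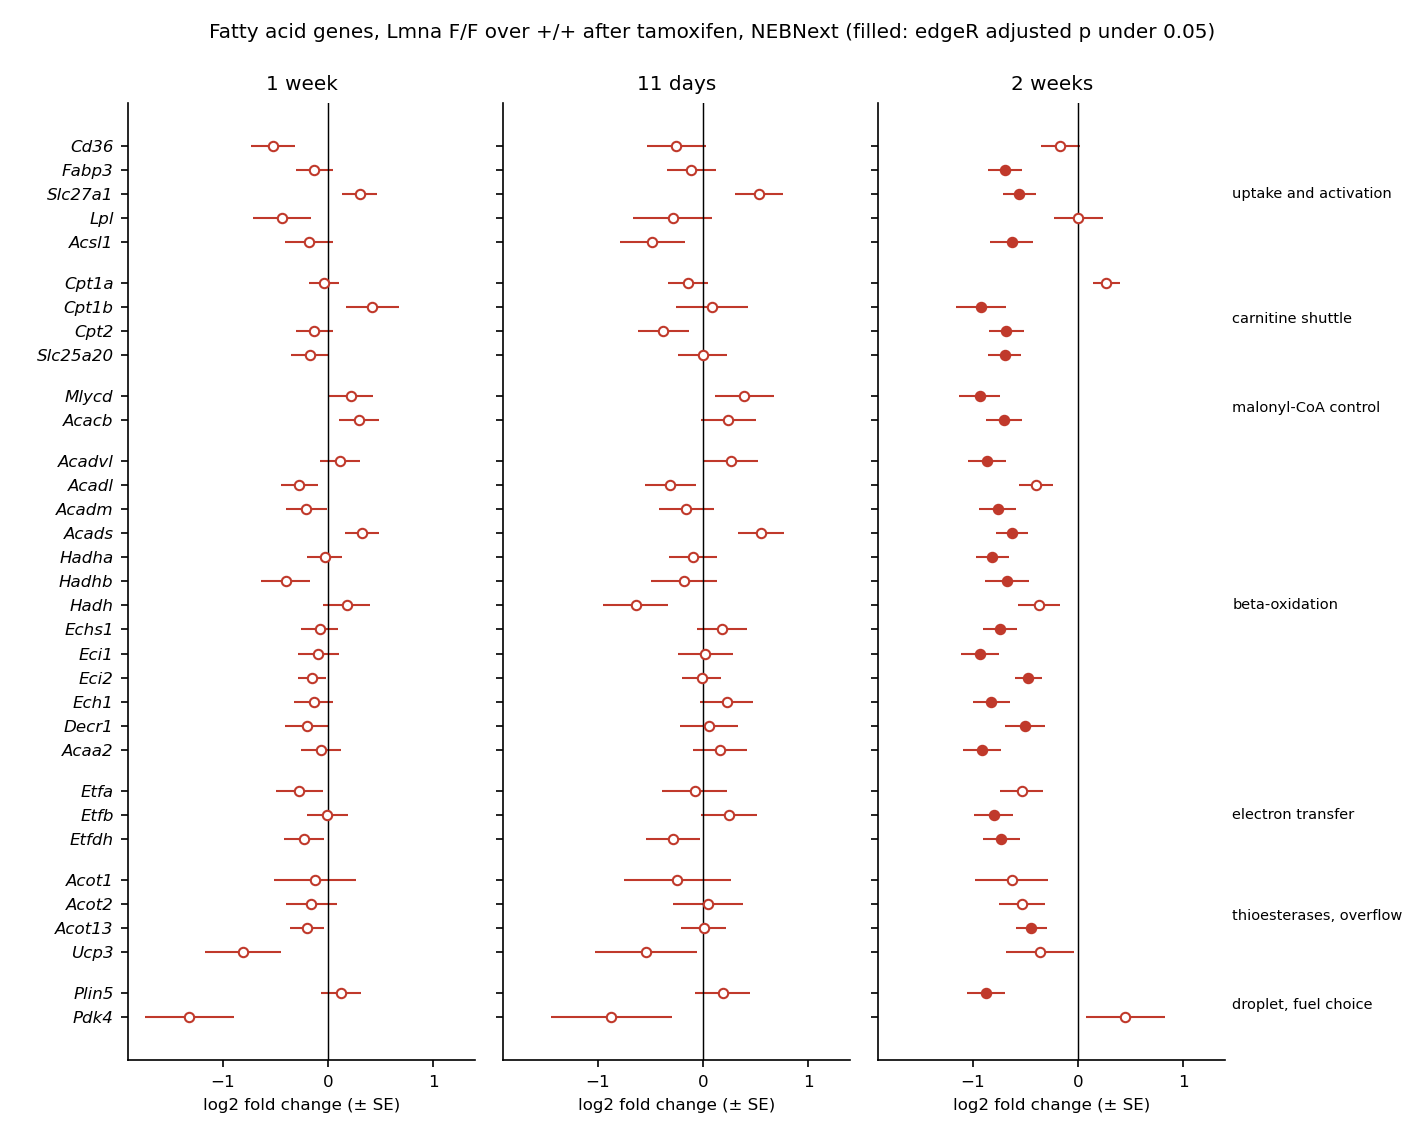
Log2 fold change of each of the 33 genes in Lmna F/F over +/+ hearts (horizontal axis, ± SE) at 1 week, 11 days and 2 weeks, with genes grouped by role down the page and filled points for an adjusted p under 0.05. Filled points appear in the 2-week panel alone, 23 of them, all left of 0.

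Among uptake genes, Fabp3, the fatty acid binding protein of heart and muscle and the most abundant member per length (mean 3864 TPM over the NEBNext libraries), was 1768, 1350, 735, 986 and 1126 normalised CPM in F/F hearts at 2 weeks. In +/+ hearts its lowest, median and highest values were 1502, 2094 and 2413 CPM. Replicate 1 of F/F lay inside the +/+ range and the other 4 below it, and Fabp3 fell by 0.70 ± 0.16 (SE) on the log2 scale (edgeR adjusted p = 0.00224). Part of its transcript, 29.2% of its 50-base words, is also found in the pseudogene Fabp3-ps1, so some reads could be split between them.

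Slc27a1, a fatty acid transport protein with acyl-CoA synthetase activity, was 57.8, 37.0, 38.5, 43.4 and 38.1 normalised CPM in F/F hearts, against 55.9, 61.0 and 82.3 (lowest, median, highest) in +/+ hearts. Again replicate 1 of F/F alone reached the +/+ range. It fell by 0.56 ± 0.16 on the log2 scale (edgeR adjusted p = 0.00853), a call lost without F/F replicate 2 (adjusted p = 0.0652). Acsl1, which activates long-chain fatty acids to acyl-CoA, fell by 0.63 ± 0.20 (edgeR adjusted p = 0.0219), and was called in 15 of 24 alternative settings.

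The genes that bring fatty acids to the cell surface behaved differently within the group. Lpl, the lipase of circulating triglyceride, was 5211, 1737, 1172, 1872 and 1914 normalised CPM in F/F hearts, against 1753, 2694 and 3136 in +/+ hearts. F/F replicate 1 was above every +/+ library and replicates 2 and 3 were below every one, and the fitted log2 fold change was 0.00 ± 0.23 (edgeR adjusted p = 0.999). This value depended on replicate 1: without it, and within pool KIUC035 alone, which does not hold it, Lpl was called lower. Cd36, the membrane fatty acid translocase, was 1898, 1006, 744, 859 and 801 CPM in F/F hearts, against 1043, 1223 and 1681 CPM in +/+ hearts. Replicate 1 of F/F was above and the other 4 were below the +/+ range, with a log2 value of -0.17 ± 0.19 (edgeR adjusted p = 0.532).

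In the carnitine shuttle, the outer-membrane enzyme comes as a muscle form, Cpt1b, and a liver form, Cpt1a. Cpt1b was 3.65, 4.15, 4.27, 7.07 and 5.63 normalised CPM in F/F hearts at 2 weeks, against 3.82, 7.48 and 13.7 (lowest, median, highest) in +/+ hearts. The groups overlapped, and Cpt1b fell by 0.93 ± 0.24 on the log2 scale (edgeR adjusted p = 0.00472). Cpt1a was 30.3, 31.8, 44.7, 41.5 and 32.4 CPM in F/F hearts against 24.4, 28.4 and 35.3 CPM in +/+ hearts. Its 2 highest F/F libraries, replicates 3 and 4, exceeded every +/+ library, and its log2 fold change of 0.27 ± 0.13 was not called (edgeR adjusted p = 0.119). It was called higher in 4 of 24 alternative settings, among them library totals without TMM factors.

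The ratio of Cpt1a to Cpt1b per library, from deposited TPM, showed the change within the pair. At 2 weeks its log2 value was 2.48, 2.36, 2.81, 1.98 and 1.95 in F/F hearts, against 0.49, 1.32 and 2.40 (lowest, median, highest) in +/+ hearts. All F/F libraries exceeded 6 of the 7 +/+ libraries. The means were 2.32 ± 0.36 in F/F hearts (SD, n = 5) and 1.31 ± 0.59 in +/+ hearts (n = 7), and the difference of 1.01 had an exact two-sided permutation p of 0.0101 (adjusted 0.0238 over 3 times). Within pool KIUC033 it was 0.863 (2 against 5 libraries, exact p = 0.19, where the smallest possible is 0.0952) and within pool KIUC035 1.56 (3 against 2, exact p = 0.2, the smallest possible). Without F/F replicates 2 and 3 it was 0.825 (3 against 7, exact p = 0.05).

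At 1 week the ratio stood the other way. Its log2 value was 1.20, 1.08, 0.82 and 1.24 in F/F hearts, against 2.23, 1.63, 1.30, 1.25 and 1.50 in +/+ hearts, and no F/F library reached the lowest +/+ library. The means were 1.08 ± 0.19 (SD, n = 4) and 1.58 ± 0.39 (n = 5), with an exact two-sided permutation p of 0.0159, the smallest that 4 against 5 allow (adjusted 0.0238). At 11 days the values were 1.14 and 0.34 in the libraries labelled F/F, against 1.23, 0.74 and 0.92 in those labelled +/+ (exact permutation p = 0.6, where 2 against 3 cannot go below 0.2). The difference between the genotypes changed by 1.50 from 1 to 2 weeks (exact permutation of labels within each time, 99792 arrangements, p = 0.000671), a test chosen after the values were seen. Its null is no genotype difference at either time, and it holds no sex or pool term. The p-value is therefore not a test of equal effects alone.

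The level of this ratio is uncertain, and so are its differences between groups. In GENCODE M21, 81.4% of the exon bases of Cpt1b overlap Gm44502 on the same strand, and 78.6% of its 50-base words occur in both. Cpt1b received 51 to 315 counts per NEBNext library and Gm44502 1 to 25. How reads shared by both genes were counted is not given. If they were dropped, the Cpt1b values, the ratio and their tests rest on a minor part of the transcript. A positive log2 ratio therefore does not show that the liver form exceeded the muscle form. In QuantSeq, Cpt1b received 5 tags in all, in 4 of 20 libraries, so it was not tested there and no ratio was computed.

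**Figure D2:**
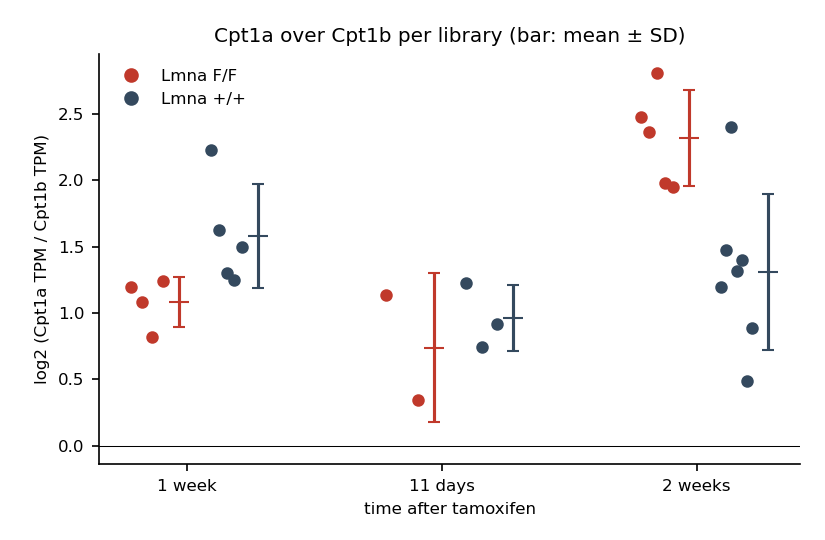
Log2 ratio of Cpt1a to Cpt1b (deposited TPM, vertical axis) in each Lmna F/F and +/+ library at 3 times after tamoxifen, with the mean ± SD of each group beside its points. Lmna F/F libraries lie below every +/+ library at 1 week and above 6 of 7 at 2 weeks.

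The other shuttle genes fell as well. Cpt2, the inner-membrane carnitine palmitoyltransferase, was 260, 229, 163, 253 and 237 normalised CPM in F/F hearts at 2 weeks, against 282, 376 and 426 in +/+ hearts. The groups did not overlap, and Cpt2 fell by 0.68 ± 0.16 on the log2 scale (edgeR adjusted p = 0.00281). Slc25a20, the carnitine-acylcarnitine carrier, fell by 0.70 ± 0.16 (edgeR adjusted p = 0.00184), its F/F replicate 1 again inside the +/+ range at 241 CPM.

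Malonyl-CoA is made by acetyl-CoA carboxylase beta (Acacb) and removed by malonyl-CoA decarboxylase (Mlycd), and both genes fell. Mlycd was 74.7, 53.0, 36.5, 42.9 and 52.3 normalised CPM in F/F hearts, against 84.2, 93.6 and 114 in +/+ hearts. The groups did not overlap, and the log2 fold change of -0.94 ± 0.19 (edgeR adjusted p = 0.00089) was the lowest of the 33 genes. Acacb was 127, 72.9, 61.3, 63.0 and 71.5 CPM in F/F hearts against 114, 127 and 163 in +/+ hearts. It fell by 0.70 ± 0.17 (edgeR adjusted p = 0.00366), with replicate 1 of F/F inside the +/+ range.

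Beta-oxidation held the largest number of called genes. Of the acyl-CoA dehydrogenases, which open each round, Acadvl, specific for very long chains, was 1057, 920, 614, 884 and 906 normalised CPM in F/F hearts, against 1382, 1616 and 1842 in +/+ hearts. The groups did not overlap, and it fell by 0.87 ± 0.18 on the log2 scale (edgeR adjusted p = 0.000826). Exons of Acadvl overlap Dvl2 on the opposite strand over 42.9% of their bases, and whether strand was used in counting is not known from the sources. Acads, the short-chain enzyme, was 113, 108, 90.9, 74.8 and 102 CPM in F/F hearts, against 135, 155 and 170 CPM in +/+ hearts, again without overlap. It fell by 0.63 ± 0.15 (edgeR adjusted p = 0.00274). Acadm, for medium chains, fell by 0.77 ± 0.18 (edgeR adjusted p = 0.00201). Acadl, for long chains, had a log2 fold change of -0.40 ± 0.16 and was not called (edgeR adjusted p = 0.0621).

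The later steps of the spiral were lower too. Hadha was 1477, 1084, 665, 1001 and 1011 normalised CPM in F/F hearts, against 1634, 1913 and 2448 in +/+ hearts. Its groups did not overlap, and it fell by 0.81 ± 0.16 on the log2 scale (edgeR adjusted p = 0.00043). Hadhb, whose start lies just beyond the stretch shown above and on the other strand, was 206, 102, 79.4, 108 and 111 CPM in F/F hearts, against 176, 203 and 240 CPM in +/+ hearts. F/F replicate 1 exceeded the +/+ median while the other 4 were below every +/+ library. Hadhb fell by 0.68 ± 0.21 (edgeR adjusted p = 0.0185) and was called in 16 of 24 alternative settings. Of the 50-base words of Hadhb, 18.1% occur in Gm13910.

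Acaa2, the thiolase that closes each round, was 1256, 1028, 697, 958 and 975 normalised CPM in F/F hearts, against 1573, 1917 and 2205 in +/+ hearts. It fell by 0.92 ± 0.18 on the log2 scale without overlap of the groups (edgeR adjusted p = 0.000499). Hydration and dehydrogenation of short chains belong to Echs1, which fell by 0.75 ± 0.16 (edgeR adjusted p = 0.00138), and to Hadh, whose log2 fold change of -0.37 ± 0.20 was not called (edgeR adjusted p = 0.176).

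Unsaturated fatty acids need auxiliary isomerases and a reductase, and these fell together with the core enzymes. Eci1, an enoyl-CoA isomerase, was 267, 157, 126, 182 and 167 normalised CPM in F/F hearts, against 309, 334 and 383 in +/+ hearts. There was no overlap, and it fell by 0.93 ± 0.18 on the log2 scale (edgeR adjusted p = 0.00042). Ech1, a dienoyl-CoA isomerase and the most abundant beta-oxidation member per length (mean 3676 TPM), was 2170, 1790, 1079, 1603 and 1617 CPM in F/F hearts, against 2422, 2982 and 3747 CPM in +/+ hearts. It fell by 0.83 ± 0.17 without overlap (edgeR adjusted p = 0.00103). Eci2 fell by 0.47 ± 0.13 and Decr1, the dienoyl-CoA reductase, by 0.51 ± 0.19 (edgeR adjusted p = 0.00622 for Eci2 and 0.0422 for Decr1). Decr1 was called in only 10 of 24 alternative settings, and Eci2 in 18.

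Electrons from the dehydrogenases pass to the flavoprotein ETF, made of Etfa and Etfb, and on through Etfdh to ubiquinone. Etfb was 227, 190, 134, 187 and 209 normalised CPM in F/F hearts at 2 weeks, against 281, 320 and 359 in +/+ hearts. The groups did not overlap, and Etfb fell by 0.80 ± 0.18 on the log2 scale (edgeR adjusted p = 0.00206). Of its exon bases 58.2% overlap Gm45233 or Mir7051 on the same strand, so its level is uncertain. Etfdh fell by 0.73 ± 0.17 (edgeR adjusted p = 0.00284). Etfa had a log2 fold change of -0.53 ± 0.20 and was not called (edgeR adjusted p = 0.0506).

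Thioesterases split acyl-CoA back to free acid, and Ucp3 is a carrier of the inner membrane. Acot13, the most abundant of them per length (mean 1126 TPM), was 454, 389, 190, 260 and 327 normalised CPM in F/F hearts, against 359, 513 and 606 in +/+ hearts. F/F replicates 1 and 2 lay inside the +/+ range. It fell by 0.45 ± 0.15 on the log2 scale (edgeR adjusted p = 0.0249), and the call was lost in 4 of the 12 fits that left out a library, F/F replicate 2 or 3 or +/+ replicate 6 or 7 (adjusted p up to 0.0963). Acot1, a cytosolic thioesterase, was 10.2, 2.68, 1.72, 3.80 and 3.09 CPM in F/F hearts against 4.62, 5.64 and 10.6 CPM in +/+ hearts. Replicate 1 of F/F was near the highest +/+ library and the other 4 were below every one. The log2 fold change of -0.63 ± 0.35 was not called (edgeR adjusted p = 0.18), and it was -1.50 and called without F/F replicate 1. Acot1 and Acot2 share sequence (13.6% of the 50-base words of Acot1 occur in Acot2), so reads between them are uncertain. Acot2 had a log2 fold change of -0.53 ± 0.22 and Ucp3 of -0.36 ± 0.32, and neither was called (edgeR adjusted p = 0.0713 for Acot2 and 0.419 for Ucp3).

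Plin5, which coats lipid droplets in oxidative tissue, was 132, 104, 77.1, 115 and 119 normalised CPM in F/F hearts, against 182, 195 and 209 in +/+ hearts. The groups did not overlap, and Plin5 fell by 0.88 ± 0.18 on the log2 scale (edgeR adjusted p = 0.000802). Pdk4, the kinase that turns off pyruvate dehydrogenase when fatty acids are burned, was 817, 366, 769, 557 and 355 CPM in F/F hearts, against 239, 441 and 633 CPM in +/+ hearts. Its F/F replicates 1 and 3 were above every +/+ library, and its log2 fold change of 0.45 ± 0.38 was not called (edgeR adjusted p = 0.397).

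**Figure D3:**
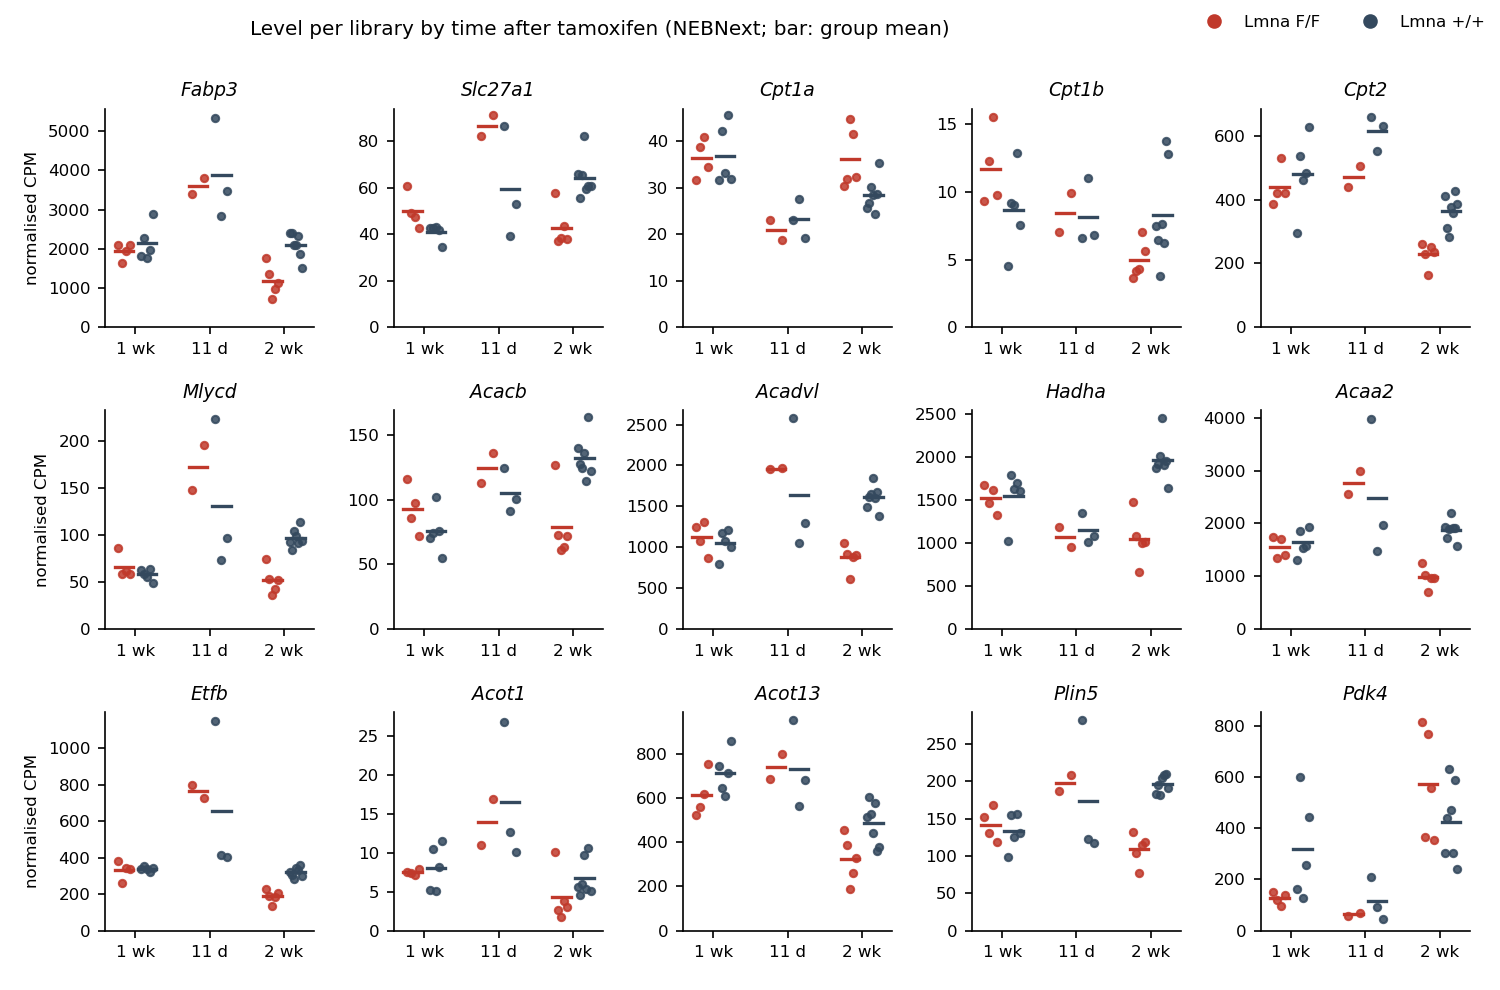
Normalised CPM per library (vertical axis, from 0) of 15 of the genes in libraries labelled Lmna F/F and +/+ at 3 times after tamoxifen, with bars at the group means. Levels of different times come from different sequencing pools and are not compared. Within 2 weeks Cpt2, Mlycd, Acadvl, Hadha, Acaa2, Etfb and Plin5 show no overlap between F/F and +/+ libraries. How many of all genes show no overlap was not counted.

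The 2-week result was uneven between libraries and pools. In F/F replicate 1, 12 of the 33 genes were below the lowest +/+ library, 18 were inside the +/+ range and 3 above it. In F/F replicates 2 to 5 the number below was 29, 30, 27 and 29. How many of all genes lay below the +/+ range in each library, or showed no overlap between the groups, was not counted. Without F/F replicate 1, 29 genes were called, with a median log2 fold change of -0.94. Without F/F replicates 2 and 3, Fabp3, Slc27a1, Acsl1, Acacb and Acot13 were among the genes no longer called, and the median was -0.54. Within pool KIUC033 (2 F/F and 5 +/+ libraries, replicate 1 included) the median was -0.38 and 3 genes were called, Acadvl, Acaa2 and Plin5. Within pool KIUC035 (3 and 2 libraries) it was -0.98 and 27 were called. The shares of all genes called in these smaller fits are not given here. These counts therefore do not show a trait of the 33 genes alone. Acadvl, Acaa2 and Plin5 were the 3 genes called lower in all 24 alternative settings.

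Scaling matters for the direction over all genes. With library totals in place of TMM factors, the median over all genes moved to 0.29, and 4373 genes were called higher and 822 lower, against 2537 and 2025 with TMM. The 33 genes then had a median of -0.44, with 17 called lower and 1, Cpt1a, higher. With deposited TPM in limma on log2(TPM + 1), 14 were called lower and Cpt1a higher, beside a median over all genes of 0.21. The share of all genes called by limma is not given here.

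At 1 week 0 of the 33 genes were called, and 0.0256% of all genes were, 0.0192% lower and 0.0064% higher (edgeR). At an unadjusted p under 0.05 there were 3, Cd36, Ucp3 and Pdk4, all with negative values, and DESeq2 called 0 of the 33. The median log2 fold change was -0.13 with 25 values below 0, but 0.04 with library totals, where all genes had a median of 0.15. Macrophage marker sums were 583 to 662 CPM in F/F hearts and 483 to 790 CPM in +/+ hearts, and cardiomyocyte marker sums 124660 to 154160 against 135510 to 173530, so the marker sums of the genotypes overlapped. Pdk4 was 152, 122, 98.2 and 138 CPM in F/F hearts at 1 week, against 162, 600, 128, 256 and 445 CPM in +/+ hearts. All 4 F/F libraries were below +/+ replicates 1, 2, 4 and 5, and the log2 fold change of -1.32 ± 0.43 did not pass the threshold (edgeR adjusted p = 0.367).

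At 11 days 0 of the 33 genes were called, as were 0% of all genes (edgeR). At an unadjusted p under 0.05 there were 3, Slc27a1, Acads and Hadh, and DESeq2 called 0. The median was -0.02, with 18 values below 0. Markers differed between the libraries labelled +/+. Atrial marker sums were 485 and 497 CPM in the libraries labelled F/F, against 788, 2250 and 3097 CPM in those labelled +/+. Fibroblast marker sums were 893 and 810 CPM in the libraries labelled F/F, against 809, 2751 and 1343 CPM in those labelled +/+. Replicates 2 and 3 of +/+ were thus the higher ones, and with an atrial marker score as a covariate 0 of the 33 genes were called. Without +/+ replicate 1, Slc27a1, Acads and Etfb were called higher in the libraries labelled F/F, with log2 fold changes of 0.91, 0.87 and 0.88, and the median was 0.29. The part of the markers in those 3 calls was not tested. Etfb, for example, was 800 and 729 CPM in libraries labelled F/F, against 1149, 416 and 403 CPM in those labelled +/+.

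The difference between genotypes changed between 1 and 2 weeks for 11 of the 33 genes, 10 toward lower and 1 toward higher, beside 12.4% of all genes (5.88% lower and 6.52% higher; edgeR test of the difference of effects). Each time came from its own sequencing pools, but each effect is a contrast within its time. The median change was -0.55, beside 0.04 over all genes. Cpt1b changed by -1.35 ± 0.35 on the log2 scale (edgeR adjusted p = 0.0145), with an effect at 1 week of 0.42 ± 0.25 that was not called. Mlycd changed by -1.15 ± 0.29 (edgeR adjusted p = 0.0115), Acacb by -0.9995 ± 0.26 (0.0146), Plin5 by -0.996 ± 0.26 (0.016), Acadvl by -0.98 ± 0.26 (0.0168) and Acads by -0.96 ± 0.22 (0.00791). Slc27a1 changed by -0.86, Acaa2 by -0.85, Eci1 by -0.84 and Hadha by -0.78 (edgeR adjusted p of 0.0178 for Slc27a1, 0.0334 for Acaa2, 0.0371 for Eci1 and 0.0267 for Hadha). Both malonyl-CoA genes, 5 of 13 of beta-oxidation and 1 of 4 of the shuttle were among them. Of electron transfer, Etfb had a change of -0.80 ± 0.27 that was not called (edgeR adjusted p = 0.0533), and it was called with DESeq2 (adjusted p = 0.0422) and with library totals (0.0394). No difference between roles was tested. Without 2-week F/F replicates 2 and 3, 1 gene, Acads, was called, in a fit whose share of all genes called is not given here.

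Pdk4 was the 1 gene that changed toward higher, by 1.77 ± 0.57 (edgeR adjusted p = 0.042). This call was lost in 12 of 21 fits that left out a library (adjusted p up to 0.112), among them each F/F library of 1 week. Of the 10 that changed toward lower, Cpt1b, Mlycd, Acadvl, Acads and Plin5 were called in all 21 fits that left out a single library. Acacb lost its call without 1-week F/F replicate 1 (adjusted p = 0.0612), and Slc27a1 without 1-week F/F replicate 1 or 2-week F/F replicate 2 (up to 0.0568). Hadha lost it in 4 fits (adjusted p up to 0.0754), Acaa2 in 5 (up to 0.0847) and Eci1 in 9 (up to 0.0881), 1-week F/F replicate 1 among those left out each time. Cpt1b was also lost in the fit with no covariates.

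Genes of neighbouring pathways fell as well, to be read beside the 13% of all genes called lower and 16.2% called higher. At 2 weeks 14 of 18 citric acid cycle genes were called lower (median log2 fold change -0.62) and 19 of 21 nuclear-encoded respiratory chain genes (-0.63), with 0 higher in either list. All 6 genes of ketone and acetyl-CoA use fell (-0.73), among them Bdh1, the first enzyme of ketone use (-0.98), and Acss1, a mitochondrial acetyl-CoA synthetase (-0.84). Peroxisomal oxidation had 5 of 13 called lower (-0.37), including Ehhadh (-0.76) and Crat, carnitine acetyltransferase (-0.71). These counts are described beside those of the fatty acid genes, and no difference between the lists was tested.

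Of 14 regulators 7 were called lower and 0 higher (median -0.48). They included Ppara, the receptor that activates many of the genes above, with a log2 value of -1.02 ± 0.28 (edgeR adjusted p = 0.0073), Klf15 with -1.19 ± 0.21 (0.000221) and Esrrb with -1.07 ± 0.20 (0.000338). Of 14 genes of triglyceride storage and lipolysis 6 fell and 1 rose, beside the same shares of 13% and 16.2% of all genes. G0s2, an inhibitor of triglyceride lipase, fell by 1.33 ± 0.20, and Dgat2, which makes triglyceride, by 1.16 ± 0.18, while Plin2, the common lipid droplet coat, rose by 0.71 ± 0.21 (edgeR adjusted p of 3.43e-05 for G0s2, 7.58e-05 for Dgat2 and 0.0134 for Plin2).

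A list of 22 other tested fatty acid handling genes held 9 that fell and 4 that rose (median -0.51), where the number that rose is near the 16.2% of all genes. Angptl4, a secreted inhibitor of lipoprotein lipase, rose by 2.02 ± 0.49 on the log2 scale (edgeR adjusted p = 0.0029). Its lowest and highest values were 22.1 and 152 CPM in F/F hearts, against 6.20 and 28.1 CPM in +/+ hearts, so the groups overlapped. Acsl4, an acyl-CoA synthetase that prefers arachidonate, rose by 1.14 ± 0.21 and Acsl5 by 0.74 ± 0.15 (edgeR adjusted p of 0.000379 for Acsl4 and 0.000538 for Acsl5), in contrast to Acsl1, which fell. Acad11 fell by 0.86 ± 0.16, Acot7 by 0.77 ± 0.12 and Slc22a5, the carnitine importer, by 0.72 ± 0.19 (edgeR adjusted p of 0.000349 for Acad11, 8.49e-05 for Acot7 and 0.00503 for Slc22a5).

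The QuantSeq cross asked whether loss of cGas alters the response. Among hearts with cGas, 1 of the 32 tested genes, Acot1, was called lower in F/F against F/+, beside 0.891% of all 14812 genes called lower, 3.74% called higher and 4.63% called in either direction. The median log2 fold change was -0.43, beside -0.01 over all genes, and 31 of 32 values were below 0, the exception being Lpl at 0.06. At an unadjusted p under 0.05 there were 17 genes, and DESeq2 called 7 (Acadm, Hadha, Echs1, Eci1, Etfdh, Acot1 and Plin5). The shares of all genes that passed in these ways are not given here, so both counts lack a background. In these F/F hearts 10 of 12 macrophage markers were called higher (median 1.17), with sums of 567 to 1449 CPM against 340 to 451 CPM in F/+ hearts. Of the cardiomyocyte markers 0 of 12 were called (median -0.41), with sums of 29900 to 51645 CPM against 41477 to 72651 CPM. Relative to those markers, the mean log2 level of the members was -4.47 ± 0.22 in F/F hearts and -4.55 ± 0.15 in F/+ hearts (SD, n = 6 each). Their part in the result was not tested.

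Acot1 in hearts with cGas was 1.45, 2.79 and 5.10 normalised CPM (lowest, median, highest) in F/F hearts, against 2.98, 4.98 and 10.3 in F/+ hearts. The groups overlapped, and it fell by 1.06 ± 0.30 on the log2 scale (edgeR adjusted p = 0.0464). The call was lost in 7 of 12 fits that left out a library (adjusted p up to 0.22), which were F/F replicate 1, 2, 3 or 5 and F/+ replicate 1, 2 or 3. Eci1 was 136, 185 and 257 CPM in F/F hearts, against 206, 294 and 374 CPM in F/+ hearts, a log2 difference of -0.59 ± 0.17 (edgeR adjusted p = 0.0538). Plin5 was 21.9, 31.3 and 42.7 CPM in F/F hearts against 33.6, 45.3 and 66.8 CPM in F/+ hearts, with -0.57 ± 0.18 (edgeR adjusted p = 0.0758). Neither passed the threshold, and for both genes the groups overlapped.

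In hearts without cGas, 0 of 32 genes were called in F/F against F/+, beside 0.527% of all genes, 0.5% higher and 0.027% lower (edgeR). The median was -0.29 with 31 values below 0, the exception being Cpt1a at 0.03. At an unadjusted p under 0.05 there were 4, Cpt2, Slc25a20, Mlycd and Plin5, and DESeq2 called 0. Plin5 was 30.1, 39.0, 35.2 and 36.2 normalised CPM in F/F cGas null hearts, against 65.2, 45.4, 58.5 and 48.3 in F/+ cGas null hearts. These groups did not overlap, and the log2 value of -0.61 ± 0.24 was not called (edgeR adjusted p = 0.323). Mlycd was 22.1, 31.0, 30.3 and 31.4 CPM in F/F cGas null hearts, against 47.1, 36.4, 38.8 and 38.4 CPM in F/+ cGas null hearts. It too showed no overlap, with -0.57 ± 0.23 (edgeR adjusted p = 0.337). Macrophage marker sums were 376 to 793 CPM in F/F cGas null hearts and 314 to 522 CPM in F/+ cGas null hearts. Of 12 cardiomyocyte markers 0 were called, with a median of -0.27 and sums of 33523 to 48963 CPM in F/F cGas null hearts against 44616 to 73809 CPM in F/+ cGas null hearts. Relative to those markers, the mean log2 level of the members was -4.51 ± 0.08 in F/F cGas null hearts and -4.48 ± 0.14 in F/+ cGas null hearts (SD, n = 4 each). Their part in the result was not tested.

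The dependence on cGas was tested directly as the difference between these effects. Of the 32 genes 0 were called, as were 0% of all genes, and 0 members reached an unadjusted p under 0.05 or were called by DESeq2. The median difference, without cGas minus with cGas, was 0.07, and the median half-width of the 95% intervals was 0.585 on the log2 scale. Over the members the interval bounds ran from -1.85 to 1.75. The test therefore does not show that the effects with and without cGas are alike.

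Loss of cGas by itself was compared within each Lmna genotype. In F/F hearts 0 of 32 genes were called between cGas null and cGas +/+ (0% of all genes; median 0.11), and in F/+ hearts 0 of 32 (0% of all genes; median 0.07). In both comparisons 0 members reached an unadjusted p under 0.05. Over all genes 850 did in F/F hearts and 616 in F/+ hearts. The F/+ cGas null group is all male, and sex was a term of the fit.

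Of the 32 genes tested with both kits, 29 had negative values in all 3 comparisons of F/F hearts at 2 weeks. The same was not counted over all genes, and the medians of the cardiomyocyte markers were also below 0 in all 3. The QuantSeq comparisons share no library with the NEBNext ones. Acot1 and Ucp3, the 2 lowest with cGas, had values of -1.06 and -1.10 there, -0.69 and -0.89 without cGas, and -0.63 and -0.36 in the NEBNext libraries. Mlycd, the lowest in NEBNext at -0.94, had -0.51 with cGas and -0.57 without.

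**Figure D4:**
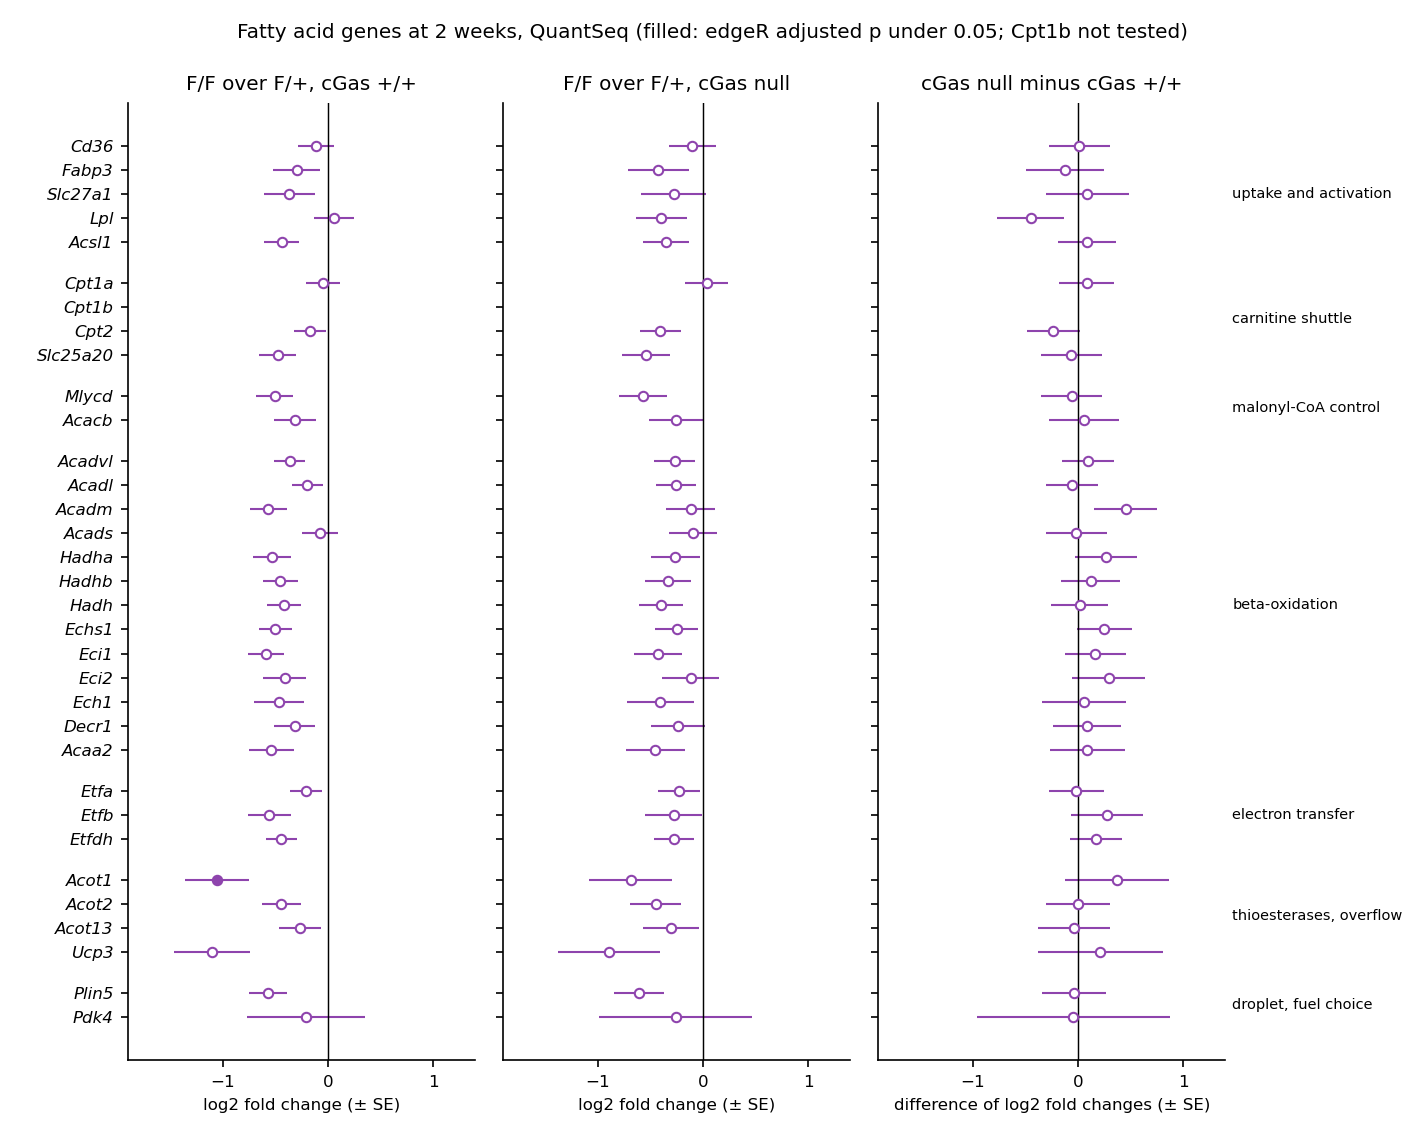
Log2 fold change (± SE) of 32 genes in QuantSeq hearts at 2 weeks for Lmna F/F over F/+ with cGas +/+ (left) and cGas null (middle), and the difference between these effects, cGas null minus cGas +/+ (right), by role. Points to the left of 0 make up 31 of 32 in each of the left and middle panels; Acot1 with cGas is the single filled point.

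Single F/F hearts of the cross differed widely. With cGas null, 15, 14, 16 and 21 of the 32 genes were below the lowest F/+ cGas null library in replicates 1 to 4. With cGas +/+, the number below the lowest F/+ library was 23, 9, 21, 2, 24 and 11 in replicates 1 to 6. The same was not counted over all genes. Replicate 4 with cGas was inside its control range for 28 of the 32 genes, and without it 10 genes were called in F/F against F/+ with cGas. The share of all genes called in that fit is not given here.

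**Figure D5:**
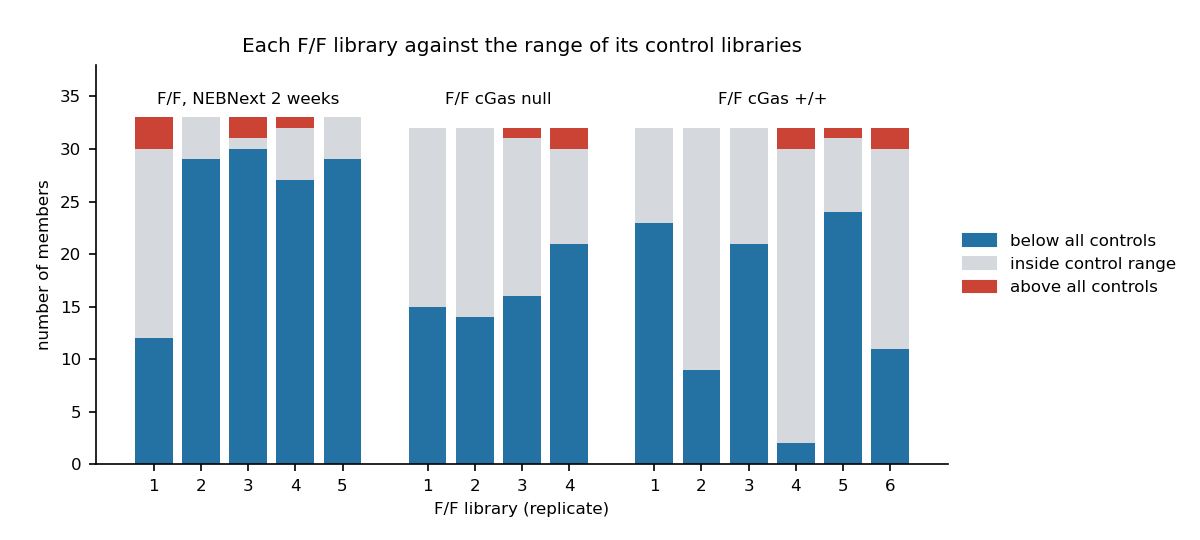
Number of the fatty acid genes (vertical axis) that lay below, inside or above the range of the control libraries in each Lmna F/F library of 2 weeks, for NEBNext (33 genes), QuantSeq with cGas null and QuantSeq with cGas +/+ (32 genes each). NEBNext replicate 1 has 12 genes below the range where the other 4 have 27 to 30, and F/F cGas +/+ libraries have between 2 and 24. The same placement was not counted over all genes.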

How the data were processed

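Adult mouse hearts were sequenced as NEBNext poly(A) libraries (50 cycles) or QuantSeq 3' libraries (100 cycles), per the labels. The authors deposited raw counts per gene for 46 libraries, and a second table. Its NEBNext columns are deposited TPM, whose gene lengths are not given. Its 20 QuantSeq columns are deposited CPM, since each equalled the counts divided by their total and rescaled, within 0.01 CPM. The submitters' processing notes name STAR 2.7.9 and the build mm39. How reads were assigned to genes, with which annotation and strand setting, is not given in the sources used. Overlapping or near-identical genes may therefore share reads.

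Counts were tested with edgeR 4.0.16 in R 4.3.3 (TMM, filterByExpr with minimum count 10 and minimum total 15, glmQLFit, glmQLFTest), 1 fit per kit, with sex and, within 2 weeks, pool KIUC035 against KIUC033 as covariates. Adjustment was over all tested genes at 0.05. The fits were tested on simulated data. Normalised CPM use TMM-scaled totals. The Cpt1a to Cpt1b ratio used exact permutation tests with scipy 1.17.1, adjusted over 3 comparisons instead of the 7 planned, since Cpt1b had too few QuantSeq tags. Alternatives used DESeq2 1.42.0, limma 3.58.1 on log2(TPM + 1) and log2(TPM + 0.1), other scalings, filters and covariates, single pools and leaving out each library; an atrial marker covariate and a fit without 2-week F/F replicates 2 and 3 were added after seeing the data.

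The members and lists were chosen with earlier results of these data known. Values per library were given for Cpt1a and Cpt1b, for the member of each role with the largest change at 2 weeks and with the highest mean TPM, and for members called in another direction, time, cGas comparison or change of effect; Lpl, Cd36, Hadhb and, in the QuantSeq comparisons, Eci1, Plin5 and Mlycd were added after their values were seen. Of each wider list, up to 3 called genes in each direction with the largest change were named. Mitochondrially encoded genes took 4.04 to 31.7% of NEBNext and 45.9 to 58.9% of QuantSeq counts. Of 93 replicate pairs 0 were identical. Promoters came from RefSeq (GRCm38.p6), a different build from that of the counts, and were matched by symbol.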

Additional observations from a re-analysis of the deposited data

Results flagged for a closer look

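Of 144 groups of values examined (a named gene in a group of 4 to 10 libraries), 11 held a library far from the others; chance gives about 1 in 20. Among NEBNext hearts of 2 weeks, F/F replicate 1 was high for Acot1 (10.2 normalised CPM, the others 1.72 to 3.80) and Acacb (127 CPM, the others 61.3 to 72.9), and +/+ replicate 4 was high for Slc27a1 (82.3 CPM, the others 55.9 to 66.2). At 1 week, F/F replicate 1 was high for Mlycd (86.0 CPM, the others 58.4 to 62.2), +/+ replicate 1 was low for Hadha (1025 CPM, the others 1602 to 1788) and +/+ replicate 5 was low for Slc27a1 (34.4 CPM, the others 42.1 to 43.2). The change of effect of Mlycd from 1 to 2 weeks was still called without that F/F library, and that of Hadha without that +/+ library.

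In the cross, F/F cGas null replicate 1 was low for Mlycd (22.1 CPM, the others 30.3 to 31.4) and replicate 2 was high for Hadha (560 CPM, the others 457 to 470). F/+ cGas null replicate 1 was high for Ech1 (1674 CPM, the others 696 to 734) and Acaa2 (914 CPM, the others 423 to 434), and low for Cpt1a (8.46 CPM, the others 12.2 to 12.9).

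The difference between F/F and +/+ hearts itself changed between 1 and 2 weeks for 11 genes (edgeR test of the difference of effects) and for the Cpt1 ratio. The log2 changes were -1.35 for Cpt1b, -1.15 for Mlycd, -0.9995 for Acacb, -0.996 for Plin5, -0.98 for Acadvl, -0.96 for Acads, -0.86 for Slc27a1, -0.85 for Acaa2, -0.84 for Eci1, -0.78 for Hadha and 1.77 for Pdk4. The log2 ratio of Cpt1a to Cpt1b changed by 1.50.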

How the results depend on the processing

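No fold change called among the 33 genes by the reported fits reversed under any alternative run. Lpl, not called at 2 weeks by the reported fit (log2 fold change 0.00), was called lower in 2 of 24 alternatives. Called genes of the other lists were not checked in this way. With no filter on low counts, 2 members were called at 1 week (Ucp3 and Pdk4), 1 at 11 days (Pdk4), 5 with cGas and 1 without cGas. At 2 weeks, 15 were called with limma on log2(TPM + 1) and 15 on log2(TPM + 0.1), 3 in pool KIUC033 alone, and 23 by the reported fit. With cGas, DESeq2 called 7, library totals without TMM 0, and no covariates 3, against 1; without cGas, fitting only the groups compared called 1 (Ucp3). The Cpt1 ratio difference was 0.863 in pool KIUC033 and 1.56 in pool KIUC035, with too few libraries to pass the threshold in either case. Leaving out a library gave 18 to 29 called at 2 weeks, 6 to 18 for the change of effect, 0 to 3 at 11 days, 0 to 10 with cGas, and 0 in the other comparisons. Except where stated, the share of all genes called is not given beside these counts, nor beside counts at an unadjusted p. Without 2-week F/F replicates 2 and 3 together, an alternative chosen after seeing their Lmna values, 13 were called at 2 weeks and 1 for the change of effect, and the ratio difference was 0.825 (exact permutation p = 0.05); fewer libraries entered these fits. On leaving out a single library the ratio difference ranged from -0.58 to -0.34 at 1 week, -0.62 to 0.17 at 11 days and 0.87 to 1.19 at 2 weeks. Except where a value or the construction of the alternative shows it, the cause was not tested. No paired analysis was possible because the labels give no replicate numbers, and the numbers in the text follow accession order. Low counts limit Cpt1b, Acot1 and, in QuantSeq, Slc27a1. Exons shared with Gm44502 also limit Cpt1b.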

Other observations

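Per length, the 33 genes spanned a wide range of levels in the NEBNext libraries. Fabp3 (3864 TPM), Ech1 (3676 TPM) and Acaa2 (1674 TPM) had the highest means, and Acot1 (5.12 TPM) and Cpt1b (4.29 TPM) the lowest. The rank of Cpt1b is uncertain, since most of its exon bases overlap Gm44502 on the same strand. In QuantSeq, where a transcript gives a tag whatever its length, Fabp3 was again the highest member (mean 2934 CPM) and was followed by Lpl (1366 CPM) and Acot13 (1081 CPM), while Slc27a1 averaged 2.78 CPM. Sirt3, a mitochondrial deacetylase of fatty acid enzymes, averaged 33.5 ± 4.05 normalised CPM in F/F hearts (SD, n = 5) and 61.4 ± 4.44 CPM in +/+ hearts (n = 7) at 2 weeks, and Esrra, which encodes ERR alpha, 70.2 ± 7.33 CPM against 113 ± 10.5 CPM. Neither gene's groups overlapped; both were singled out after their values were seen.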
